A study of Mus musculus and Meriones unguiculatus with 4 samples.

Results

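The 8 genes described are Gad1, Dusp26, Ascl4, Ajap1, Gfra1, Dpysl5, Spred3 and Slit1. They were followed through RNA sequencing of the enamel knot region of gerbil and mouse tooth germs. Most are known from neurons and neuroendocrine cells or belong to families known from them. Ajap1 and Spred3 are described below by their junction and signalling roles. The rows were found by gene symbol, ignoring case. All 8 of 8 genes occurred once in each table, among 13325 genes matched between the species and 10162 that passed the filters on level and transcript length, so the description covers 8 genes of 10162. The genes were chosen by their levels, most of them being lower in mouse SEK than in PEK and in gerbil E23 than in E21, the libraries described next, so those differences describe the choice and are given with no test.

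The gerbil samples were wild-type Meriones unguiculatus embryos labelled embryonic day 15, and the mouse samples were wild-type embryos labelled embryonic day 13, with 2 libraries per species and 4 in all. No deletion, transgene or treatment is given for either. Tooth germs were taken from the mandible, fixed and frozen-sectioned, and the knot region was cut out by laser microdissection. The labels call the cells epithelial, and how many animals went into a library is not given. The table columns show the species and an ending, E23 and E21 for gerbil and SEK and PEK for mouse, which the labels do not explain, and the numbers 21 and 23 differ from the labelled day 15. Each column is therefore treated as a library of its own, named by its ending. A level is the authors' TPM (gerbil) or FPKM (mouse) scaled so that the matched genes of a library add up to 1000000, and both units are per transcript length. Neither unit carries a read total, and the read counts of the gerbil table were not used. Depth was therefore not assessed and no counting interval is given. A corrected log2 difference is taken on log2(level + 1) after removal of each library's trend with transcript length. No significance test was run. Each ending has 1 library, so the differences within a species have no replicates. For the species contrast, with 2 libraries each, differences are given with an SE, and no test is added because the authors scaled each species' table on its own. With so few libraries, a two-sided exact permutation test could not go below p = 0.333.

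The enamel knot is a small, non-dividing signalling centre of the dental epithelium that secretes Shh, Fgf, Wnt and Bmp ligands and directs the folding of the cusps around it. Several proteins known from axon growth and neuron differentiation also act or are transcribed in epithelia, and Slit1 is a known transcript of mouse enamel knots. Slit1 encodes a secreted ligand of Robo receptors that repels growing axons. Gfra1 encodes the cell-surface receptor that binds the neurotrophic factor GDNF and signals with the kinase Ret. Ajap1 encodes a membrane protein of adherens junctions. Spred3 encodes an inhibitor of the Ras and MAP kinase pathway, and Dusp26 encodes a dual specificity phosphatase with MAP kinases among its substrates. Dpysl5 encodes a collapsin response mediator protein of the growth cone, Gad1 encodes an enzyme that makes the transmitter GABA from glutamate, and Ascl4 encodes a basic helix-loop-helix factor of the achaete-scute family, whose first members were found as proneural genes in Drosophila.

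Epithelial markers were abundant in all 4 libraries, and neuron markers ranged widely, some at or near 0 and others clearly present. Of 13 dental epithelium markers all 13 were measured, with summed levels of 9939.9 and 11419.8 in gerbil E23 and E21 and 8539.6 and 6253.9 in mouse SEK and PEK. The keratin genes Krt5 and Krt14 had the highest means of the list over the 4 libraries. Of 21 neuron markers, 18 were matched and 12 measured. Their sums were 500.0 and 645.7 in gerbil E23 and E21 and 130.5 and 521.7 in mouse SEK and PEK. Uchl1 and Map2, both also known outside neurons, had the highest means over the 4 libraries, while in each mouse library Stmn2, a microtubule regulator of neurons, came second to Uchl1, at 44.6 in SEK and 19.2 in PEK, against 1.53 and 1.66 in gerbil E23 and E21. The synaptic vesicle gene Syt1 was at 8.75 in gerbil E23 and 41.8 in E21, Syp at 16.0 and 18.8, and the neuron nuclear protein gene Rbfox3 at 13.6 and 27.1. The peripheral neuron filament gene Prph was at 0.236 in mouse SEK and 14.5 in PEK, and listed at 0 in both gerbil libraries. The pan-neuronal RNA-binding protein gene Elavl3 was listed at 0 in both gerbil libraries and stood at 0.0172 in mouse SEK and 0.149 in mouse PEK. The libraries also differed in other cell types: endothelium markers (6 of 8 measured) summed to 130.8 in gerbil E23 and 1.28 in E21, and to 26.7 in mouse SEK and 6.65 in PEK.

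Promoter sequence was available from RefSeq (GRCm38.p6) for 6 of the 8 mouse genes, and not for Slit1 and Dusp26. It is shown because the genes were lower in the same libraries, and the windows are the 250 bases before the annotated RefSeq start. By the mouse positions given below, the Gad1, Spred3 and Gfra1 windows lie inside the measured locus, and the Ajap1 window does in part. The Gfra1 window begins in a GENCODE exon. Not all windows are thus upstream of the measured locus. The sequences of the 3 genes whose window holds the core of a Lef/Tcf site, the binding site of the Wnt pathway's nuclear factors, follow 5′ to 3′, with CTTTGA or CTTTGT on either strand in capitals. The Gad1 window (chr2:70561879-70562041, plus strand) is printed only up to the first exon of a GENCODE transcript, the Dpysl5 window (chr5:30711314-30711563, plus strand) and the Ascl4 window (chr10:85927152-85927401, plus strand) in full.
Gad1: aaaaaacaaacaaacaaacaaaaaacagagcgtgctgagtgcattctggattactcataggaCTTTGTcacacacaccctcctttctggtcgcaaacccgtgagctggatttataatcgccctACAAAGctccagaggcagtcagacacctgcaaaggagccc
Dpysl5: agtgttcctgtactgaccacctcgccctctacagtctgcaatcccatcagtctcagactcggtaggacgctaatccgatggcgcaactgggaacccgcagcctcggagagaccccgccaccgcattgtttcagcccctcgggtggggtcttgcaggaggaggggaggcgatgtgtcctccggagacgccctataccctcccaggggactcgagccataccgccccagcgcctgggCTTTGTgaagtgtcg
Ascl4: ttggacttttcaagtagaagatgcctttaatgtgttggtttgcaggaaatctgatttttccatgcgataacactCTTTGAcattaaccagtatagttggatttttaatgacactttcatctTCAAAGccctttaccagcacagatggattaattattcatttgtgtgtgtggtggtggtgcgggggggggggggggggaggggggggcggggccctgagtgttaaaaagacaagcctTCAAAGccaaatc
The core occurred in 3 of the 6 windows, against 27.6% of all 32851 RefSeq windows of that length. In Gad1 it lay 188 and 127 bases before the start, in Ascl4 176, 129 and 13 bases before it, and in Dpysl5 15 bases before it. An E-box (CANNTG), the site of basic helix-loop-helix factors, was in 5 of 6 windows, against 66.2% of all windows, with Ajap1 as the exception. A GC box (GGGCGG) was in 5 of 6, against 32.7%, with Gfra1 as the exception, and TATAAA was in Gad1 alone, against 12.4%. Neither arm of the neuronal silencer element RE1 (TTCAGCACC or GGACAGC) was in any of the 6, against 0.301% and 5.28% of all windows. At such low shares, this absence does not set the 6 windows apart, and sequence beyond the 250 bases was not searched. All motifs were searched on both strands, and overlap between motifs was allowed. GC content ran from 45.2% in Ascl4 to 81.2% in Ajap1, against a median of 52.4% over all windows. A match describes the letters of the window and no binding was measured.

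The 8 genes were low to moderate in the libraries where they were high, and lower still elsewhere. Their median level was 6.20 in gerbil E23 and 29.5 in E21, and 3.61 in mouse SEK and 21.1 in PEK. The median over all measured genes was higher, at 44.8 in E23 and 47.7 in E21 for gerbil and at 28.0 in mouse PEK. On these uncorrected levels, both E21 and PEK lay above both E23 and SEK for each of the 8 genes. The values that chose the genes enter this order. On the corrected scale, gerbil E21 lay below mouse SEK for Slit1 (1.88 and 2.71) and Dpysl5 (3.48 and 4.72). In these bulk libraries, fewer cells of a type and less RNA per cell cannot be told apart.

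**Figure D1:**
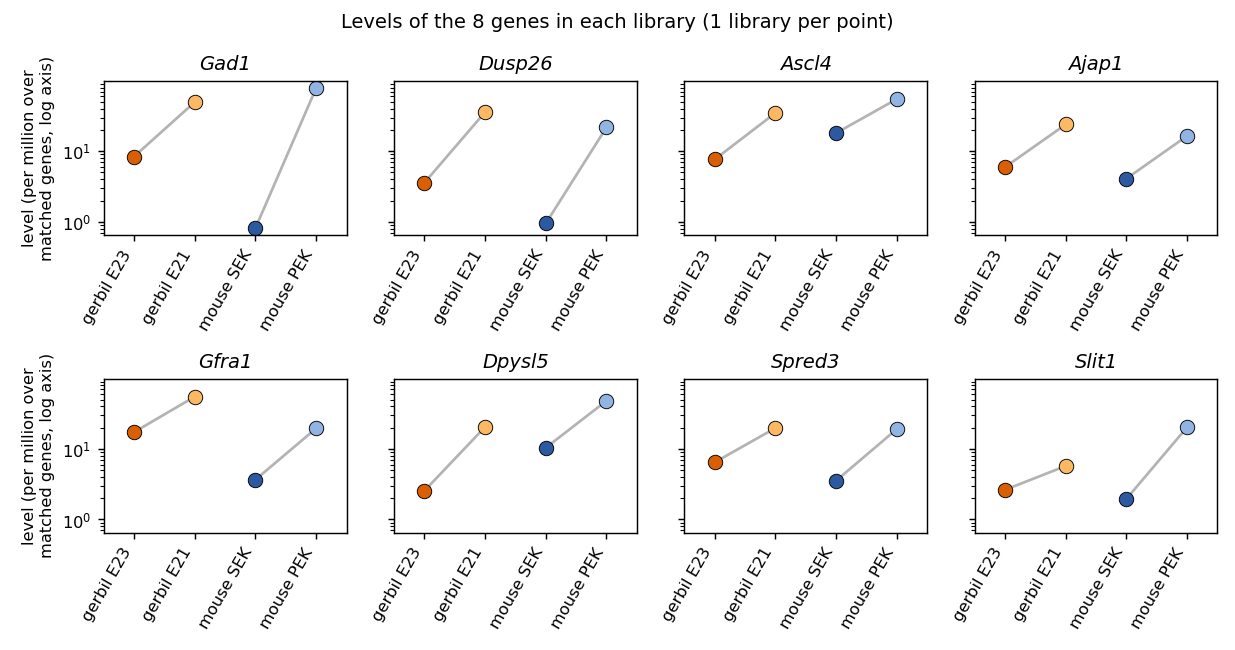
Level of each gene in the gerbil E23, gerbil E21, mouse SEK and mouse PEK libraries (scaled to 1000000 over the matched genes, log axis, 1 library per point, grey lines join the libraries of a species). In every panel both left-hand points of a species pair, E23 and SEK, lie below their partners, with the widest gap for Gad1 in mouse (0.816 in SEK and 78.7 in PEK) and the narrowest for Slit1 in gerbil (2.63 in E23 and 5.73 in E21).

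The axon repellent gene Slit1 was at 2.63 in gerbil E23 and 5.73 in E21, and at 1.96 in mouse SEK and 20.3 in PEK. It was thus low in 3 of the 4 libraries, and its corrected difference was -0.84 for E23 minus E21, short of 2-fold, and -2.26 for SEK minus PEK. Gfra1, the GDNF receptor gene, was at 17.3 in gerbil E23 and 55.1 in E21, and at 3.67 in mouse SEK and 19.6 in PEK. It was the highest of the 8 genes in both gerbil libraries. Its corrected differences were close in the species, at -1.58 for E23 minus E21 and -1.68 for SEK minus PEK. The junction gene Ajap1 was at 5.95 in gerbil E23 and 24.0 in E21, and at 4.09 in mouse SEK and 16.5 in PEK. This is the most even pair among the 8, with corrected differences of -1.80 and -1.73.

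Among the signalling inhibitors, Spred3 stood at 6.46 in gerbil E23 and 19.8 in E21, and at 3.55 in mouse SEK and 19.1 in PEK, which gave -1.43 for E23 minus E21 and -1.83 for SEK minus PEK. The phosphatase gene Dusp26 was at 3.57 in gerbil E23 and 35.9 in E21, and at 0.947 in mouse SEK and 21.8 in PEK. It had one of the largest drops in both species, with corrected differences of -3.00 and -3.64, which ranked 12 and 13 from the lowest among the 10162 genes. Dpysl5, the growth cone gene, was at 2.55 in gerbil E23 and 20.5 in E21, and at 10.4 in mouse SEK and 48.1 in PEK. Its corrected differences were -2.57 and -1.47, wider in gerbil, but with the values as deposited the wider one was in mouse (-1.52 and -1.86).

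Gad1, the GABA synthesis gene, was at 8.41 in gerbil E23 and 49.8 in E21, and at 0.816 in mouse SEK and 78.7 in PEK. It was the lowest of the 8 in mouse SEK, at 1.04% of its PEK level, and the highest of the 8 in mouse PEK. The corrected difference of -5.01 for SEK minus PEK was the lowest of all 10162 measured genes, and that of -2.36 for E23 minus E21 ranked 29. The mouse value depended on the pseudocount, at -5.92 with 0.1 and -3.52 with 5. Its rank was taken with a pseudocount of 1 only. Ascl4, the achaete-scute factor gene, was at 7.65 in gerbil E23 and 34.9 in E21, and at 18.1 in mouse SEK and 54.9 in PEK. It kept the highest level of the 8 in mouse SEK, and its corrected differences were -2.05 and -1.80.

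In all, 8 of 8 genes were at least 2-fold lower in mouse SEK than in PEK, where 8.44% of all measured genes were, and 7 of 8 were at least 2-fold lower in gerbil E23 than in E21, where 3.68% of all were. Both held for 7 of 8, against 0.915% of all genes (93 of 10162). Since these values chose the genes, nothing is read from the counts. The median corrected difference was -1.93 for E23 minus E21 and -1.81 for SEK minus PEK over the 8 genes, and -0.01 and -0.03 over all measured genes. Just outside 2-fold lay Slit1 in gerbil, which passed with a pseudocount of 0.1 (-1.04). The smallest differences that passed were Spred3 in gerbil (-1.43) and Dpysl5 in mouse (-1.47). Under other settings some values came nearer to 2-fold. Spred3 in gerbil was at -1.04 with a pseudocount of 5 and with the values as deposited. Ascl4 in mouse was at -1.15 with the gene medians set equal.

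**Figure D2:**
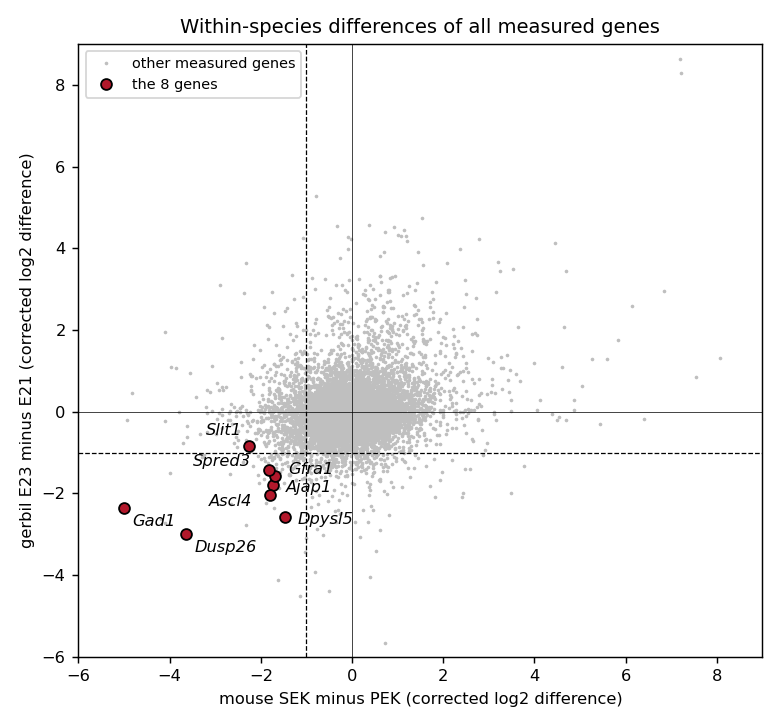
Corrected log2 difference of mouse SEK minus PEK (x axis) and of gerbil E23 minus E21 (y axis) for 10162 measured genes, with the 8 genes in red and 2-fold lower marked by dashed lines. Slit1 alone of the 8 lies above the horizontal dashed line, at -0.84, and Gad1 lies farthest left, at -5.01.

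In the mouse genome, the Ascl4 locus of the table (ENSMUSG00000085111, chromosome 10, positions 85927681 to 85946206 in GRCm38, plus strand) shares 7570 bases with the opposite-strand gene Rtcb. Rtcb itself was higher in mouse SEK, at 100.2 FPKM, against 60.4 FPKM in PEK, the other way from Ascl4. The sources used here do not say whether counting used strand, so reads of overlapping genes on opposite strands may be mixed.

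The mouse positions of the others are, in the same build, Gad1 (ENSMUSG00000070880) at 70553072 to 70602016 of chromosome 2, Dusp26 (ENSMUSG00000039661) at 31089471 to 31097047 of chromosome 8, Ajap1 (ENSMUSG00000039546) at 153373221 to 153482934 of chromosome 4 and Gfra1 (ENSMUSG00000025089) at 58235604 to 58455909 of chromosome 19. Dpysl5 (ENSMUSG00000029168) spans 30711564 to 30799474 of chromosome 5, Spred3 (ENSMUSG00000037239) spans 29157322 to 29170411 of chromosome 7, and Slit1 (ENSMUSG00000025020) spans 41600257 to 41743665 of chromosome 19. Spred3 shares 202 bases at its 5′ end with Ggn on the opposite strand, and Ggn was at 0.499 in mouse SEK and 3.63 in PEK, lower in SEK like Spred3. In the gerbil table the 2 genes do not overlap, and Ggn was at 0.255 in gerbil E23 and 2.19 in E21. Gad1 overlaps the antisense transcript Gad1os over 10286 bases, Gfra1 overlaps Gm16277 on the opposite strand over 444 bases, and Dpysl5 holds Gm42764 on its own strand. Dusp26, Ajap1 and Slit1 overlap no other gene of the GENCODE M21 basic annotation.

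The contrast of the species was not used to pick the genes, but the gaps within a species that picked them enter it. Such a gap widens the SE and makes a call less likely, so the counts below are not read against the shares of all genes. On the corrected scale, 1 of 8 was called higher in mouse and 0 of 8 higher in gerbil, where 14.7% of all measured genes were called higher in mouse and 13.4% higher in gerbil. A species was called higher where the lower of its 2 libraries stood at least 2-fold over the higher one of the other species. The called gene was Dpysl5, whose mean ± SD over the 2 libraries was 11.5 ± 12.7 in gerbil and 29.3 ± 26.6 in mouse. Its gerbil minus mouse difference was -3.25 ± 1.48 (SE, n = 2 per species). The uncorrected levels do overlap, since gerbil E21 (20.5) lies above mouse SEK (10.4), and the Dpysl5 call ended without the length correction (-1.44), with the gene medians set equal in its place (-2.34), with the values as deposited (-2.40) and with a pseudocount of 5 (-2.52). Each SD and SE includes the difference between the 2 endings of a species.

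Slit1 was the nearest to a call, at 4.18 ± 2.19 in gerbil and 11.1 ± 13.0 in mouse. Its difference was -2.37 ± 1.21, and both mouse libraries lay above both gerbil libraries on the corrected scale by 0.82 log2 units, short of 2-fold. Slit1 was called higher in mouse without mouse SEK (-3.52) and without gerbil E21 (-2.82). Gad1 was at 29.1 ± 29.2 in gerbil and 39.8 ± 55.1 in mouse, a difference of -0.38 ± 2.77 that became -2.93, higher in mouse, without mouse SEK. Dusp26 was at 19.7 ± 22.9 in gerbil and 11.4 ± 14.8 in mouse, with a difference of 1.11 ± 2.36 that became a call for gerbil without mouse PEK (2.99). Leaving out a library removes a side of the gap that chose the genes, and these calls are no species result apart from it.

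For the other 4 genes, as for Gad1 and Dusp26, the difference was smaller than its SE. It was 0.39 ± 1.15 for Gfra1, -0.05 ± 1.25 for Ajap1, -0.65 ± 1.16 for Spred3 and -0.68 ± 1.36 for Ascl4. The species overlapped for each of these on the corrected scale. Over the 8 genes the median difference was -0.52, beside -0.02 over all measured genes.

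**Figure D3:**
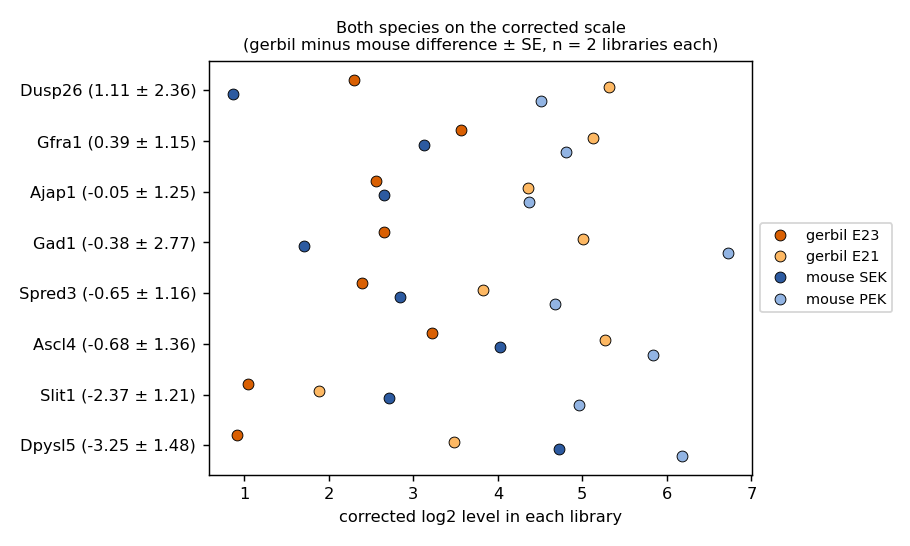
Corrected log2 level of each gene (rows) in gerbil E23, gerbil E21, mouse SEK and mouse PEK, with the gerbil minus mouse difference ± SE beside each name (n = 2 libraries each). The gerbil and mouse points overlap for 6 of the genes, and both gerbil points lie left of both mouse points for Slit1 and Dpysl5.

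Like most measured genes, relatives and partners of the 8 genes were mostly not lower in the same libraries. In the 8 families and pathways, 49 of 85 other genes were measured. Of these, 3 were at least 2-fold lower in gerbil E23 and 7 in mouse SEK, beside the 3.68% and 8.44% of all genes, and 0 of 49 were lower in both, beside 0.915%. At so low a share, 0 of 49 does not set these genes apart. Their median corrected difference was 0.02 for E23 minus E21 and -0.02 for SEK minus PEK.

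**Figure D4:**
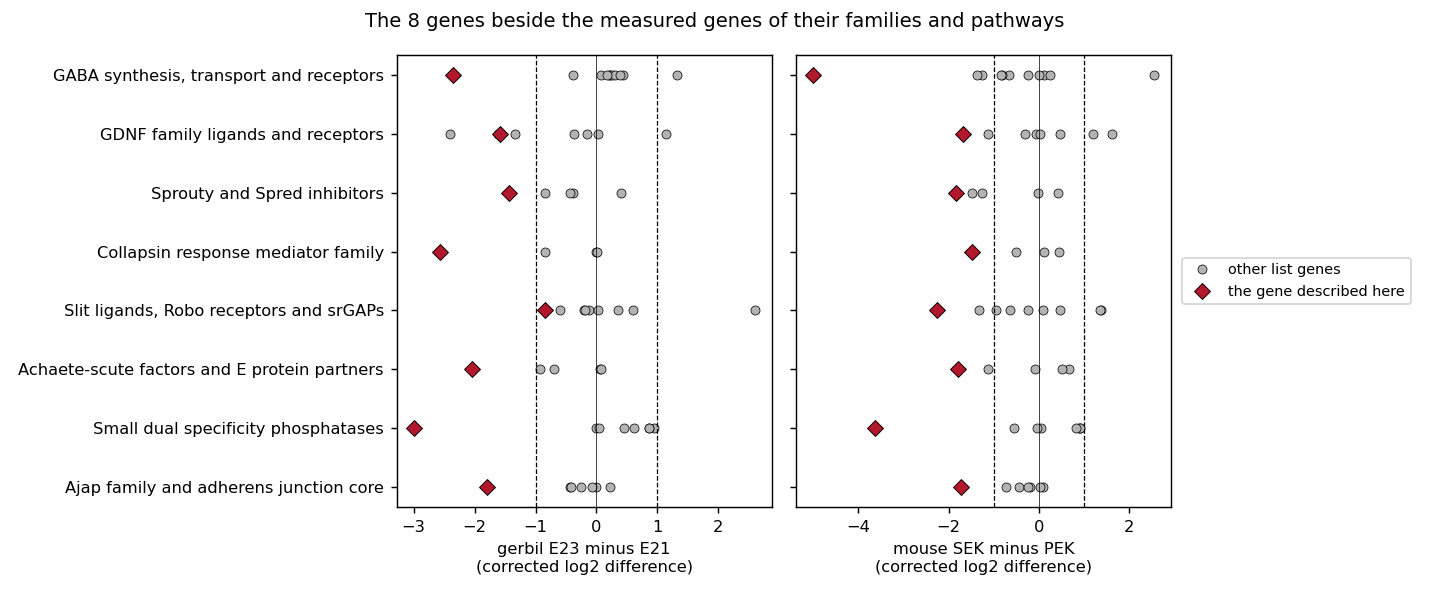
Corrected log2 differences of gerbil E23 minus E21 (left) and mouse SEK minus PEK (right) for measured genes of 8 families and pathways (rows), with the gene described here as a red diamond and the others as grey points. Dashed lines mark 2-fold, and 0 of the 49 grey genes pass the lower one in both panels, beside 0.915% of all measured genes.

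Among the ligands, Slit2 was higher where Slit1 was lower, at 296.1 in gerbil E23 and 203.0 in E21 and at 31.1 in mouse SEK and 21.1 in PEK. Its corrected difference passed 2-fold in SEK (1.37), but not without the length correction (0.54), and not in E23 (0.60). Slit3 was at 26.9 in gerbil E23 and 29.7 in E21, and at 13.0 in mouse SEK and 52.4 in PEK (-0.12 and -1.32). The receptor gene Robo1 was far more abundant than Slit1, at 533.1 and 689.3 in gerbil E23 and E21 and at 34.9 and 114.6 in mouse SEK and PEK, and passed 2-fold in neither (-0.20 and -0.94), although SEK did without the length correction (-1.69). Robo2 has no row of that symbol in the gerbil table used here and was at 1.97 FPKM in mouse SEK and 1.53 FPKM in PEK. Of the 8 measured genes besides Slit1, 0 were lower in E23 and 1, Slit3, was lower in SEK.

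Of the partners of Gfra1, Ret and Gdnf were at or near 0 and others were not. Ret, the kinase that GDNF receptors signal through, was at 0.0297 FPKM in mouse SEK and 0.156 FPKM in PEK, and no gerbil row of that symbol was used here. The ligand gene Gdnf was at 0.255 in gerbil E23, with E21 listed at 0, and at 0.242 in mouse SEK and 0.0958 in PEK. The ligand gene Nrtn was at 96.8 in mouse SEK and 81.2 in PEK and listed at 0 in both gerbil libraries, and Gfra4, a receptor of the same family, was at 0.765 and 4.22 in gerbil E23 and E21 and at 83.6 and 79.3 in mouse SEK and PEK. Both were called higher in mouse, Gfra4 by a difference of -4.03 ± 0.82, as was the sorting receptor gene Sorl1 (-1.84 ± 0.63). Nrtn and Gfra4 kept their call without the length correction, with equal gene medians and with values as deposited, while Sorl1 lost it under all 3 and was higher in gerbil without the length correction (0.41). Of 7 other measured genes, the ligand gene Artn (-2.40), Gfra4 (-1.61) and Gas1 (-1.34) were lower in gerbil E23, each at a level under 7 in both gerbil libraries and short of 2-fold with values as deposited (-0.86, -0.52 and -0.54), and Gfra3 (-1.13), under 2 in both mouse libraries, was lower in SEK, though not without the length correction (-0.84).

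In the Sprouty and Spred list, Spred2 was at 57.4 in gerbil E23 and 78.7 in E21, and at 5.76 in mouse SEK and 26.0 in PEK (-0.38 and -1.49). Spry2 was lower in mouse SEK as well (-1.25, and -0.75 with equal gene medians), while Spred1 (-0.02) and Spry1 (0.43) were not, so 2 of 4 passed in mouse and 0 of 4 in gerbil. Spred3 was below Spred1 and Spred2 in all 4 libraries. Dusp6, the MAP kinase phosphatase gene best known as a readout of Fgf signalling, was at 220.9 in mouse SEK and 703.4 in PEK (-1.55) and at 670.8 in gerbil E23 and 776.3 in E21 (-0.15). Of 9 measured MAP kinase phosphatase genes it was the 1 lower in SEK, and 0 were lower in E23. The small dual specificity phosphatases besides Dusp26 were lower in 0 of 7 cases in either species, with medians of 0.61 for E23 minus E21 and 0.82 for SEK minus PEK.

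The collapsin response mediator genes other than Dpysl5 passed 2-fold in 0 of 3 cases in either species. Dpysl2 was at 277.0 in gerbil E23 and 289.6 in E21 and at 28.6 in mouse SEK and 38.7 in PEK, and was called higher in gerbil (1.89 ± 0.05), the other way from Dpysl5, but not with values as deposited (1.15). Crmp1 was called higher in mouse (-1.37 ± 0.22), but not without the length correction (-0.71). Dpysl3, with a row in the mouse table alone among those used here, was at 36.4 FPKM in SEK and 122.2 FPKM in PEK.

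Of 10 other measured GABA genes, 0 were lower in E23 and 2, the receptor subunit genes Gabra2 (-1.26) and Gabra4 (-1.36), were lower in SEK at levels under 4. Gad2, the second GABA synthesis gene, was at 0.146 FPKM in mouse SEK and 0.446 FPKM in PEK. The vesicular GABA transporter gene Slc32a1 was listed at 0 in both mouse libraries and stood at 3.48 and 3.02 in gerbil E23 and E21. The receptor gene Gabbr1 was called higher in mouse (-2.10 ± 0.36), but not without the length correction (-0.21) or with equal gene medians (-1.12). Ascl5, a relative of Ascl4, was much more abundant, at 192.0 in gerbil E23 and 273.4 in E21 and at 1826.7 in mouse SEK and 901.0 in PEK. Its corrected differences passed 2-fold in neither species (-0.70 and 0.66). SEK was higher by 1.02 without the length correction, 1.42 with equal gene medians and 1.17 with values as deposited. Under those 3 scalings Ascl5 was called higher in mouse (-2.48, -3.38 and -4.33), but not on the corrected scale (-0.95). Among the E protein genes, whose products pair with achaete-scute factors, Tcf12 was lower in SEK (-1.12) and Tcf3 and Tcf4 were called higher in mouse (-2.03 ± 0.46 and -2.97 ± 0.26), calls that ended without the length correction (-1.52 and -0.68). In the junction list, 0 of 6 other genes were lower in either species. Ajap1's relative Pianp was called higher in mouse (-3.50 ± 0.37), and Cdh1 and Ctnna1 were called higher in gerbil (1.49 ± 0.06 and 1.27 ± 0.15). Pianp kept its call under those 3 scalings, and Cdh1 and Ctnna1 lost theirs with values as deposited (0.79 and 0.26).

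Some knot signals were lower in the same libraries and others were not. Of 16 measured signals, 3 were at least 2-fold lower in gerbil E23 and 7 in mouse SEK, beside 3.68% and 8.44% of all genes, and 3 of 16 were lower in both, beside 0.915%. The 3 of gerbil, Bmp2, Fgf20 and the Wnt antagonist gene Dkk4, were also lower in SEK. Fgf20 was listed at 0 in gerbil E23 and at 5.65 in E21, and stood at 31.8 in mouse SEK and 453.8 in PEK. With values as deposited its gerbil difference was short of 2-fold (-0.81). Dkk4 was at 8.92 in gerbil E23 and 45.0 in E21, and at 16.0 in mouse SEK and 81.6 in PEK. Shh did not go with them, at 1185.5 in gerbil E23 and 962.9 in E21 (0.35) and at 609.1 in mouse SEK and 945.8 in PEK (-0.54). Per Shh in the same library, Gad1 was at a ratio of 0.00710 in gerbil E23 and 0.0517 in E21, and 0.00134 in mouse SEK and 0.0832 in PEK.

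Markers of other cells differed between the same libraries. Of 13 dental mesenchyme markers, 4 were at least 2-fold higher in E23 and 4 in SEK, with 2 lower in each. The list summed to 3949.7 in gerbil E23 and 2051.8 in E21 and to 1586.9 in mouse SEK and 1189.1 in PEK. Over all measured genes, 6.03% were at least 2-fold higher in E23 and 7.44% in SEK. All 6 measured endothelium markers were higher in E23 and in SEK, with Emcn and Esam listed at 0 in gerbil E21, while 3 of 8 muscle markers were higher in E23 and 4 in SEK, with 1 lower, and 4 of 5 blood and immune markers were higher in each. The muscle sum was 60.9 in gerbil E23 and 33.5 in E21, and 688.7 in mouse SEK and 147.9 in PEK. The blood and immune sum was 46.1 in gerbil E23 and 12.1 in E21, and 38.3 in mouse SEK and 12.0 in PEK. Their part in the lower values of the 8 genes was not tested. Epithelium markers were at least 2-fold lower in 0 of 13 cases in either species. Of 12 neuron markers, 2 were at least 2-fold lower in E23 (Syt1 at -2.06 and Nefl at -1.67) and 0 higher, beside 3.68% and 6.03% of all genes. In SEK, 3 were lower (Prph at -3.80, Uchl1 at -3.34 and Snap25 at -1.40) and 3 higher (Isl1 at 1.99, Nefl at 1.92 and Stmn2 at 1.05), beside 8.44% and 7.44% of all genes, and 0 of 12 were lower in both. The part of neurons in the lower values of the 8 genes was not tested. Uchl1 made up most of the neuron sum of mouse PEK, at 54.9 in SEK and 444.7 in PEK. Of 5 measured Schwann cell and crest glia markers, 1 was lower in E23 and 1 in SEK, and the list summed to 118.7 in gerbil E23 and 185.5 in E21 and to 32.1 in mouse SEK and 58.8 in PEK.

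The 8 profiles were not all alike. Measured as the distance between gene-centred corrected log2 levels over the 4 libraries, the closest pairs were Ascl4 with Spred3 (0.44) and Ajap1 with Gfra1 (0.47), and the most distant was Dusp26 with Dpysl5 (4.64). Dpysl5 was nearest to Slit1 (1.61), and Gad1 was nearest to Dusp26 (1.84). Among 8833 other genes at a mean level of at least 5, the closest to the median profile of the 8 were Erich2 (0.64), Adgrb2 (0.70), Zfp703 (0.72), Hmga2 (0.76) and Cplx2 (0.78). The closest single gene was Pbx4 for Gfra1 (0.14), Nupr1l for Dpysl5 (0.25), Zfp703 for Spred3 (0.32), Pdzd2 for Slit1 (0.44), Hmga2 for Ajap1 (0.48) and Adgrb2 for Ascl4 (0.63). Gad1 and Dusp26 had no close match, the nearest being the knot genes Bmp2 (1.23) for Gad1 and Dkk4 (1.28) for Dusp26. With only 4 libraries, many genes can lie close to any profile.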

How the data were processed

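RNA from the laser-microdissected enamel knot region was sequenced in 2 gerbil and 2 mouse libraries. Per the submitters' processing notes, cutadapt 2.8, STAR 2.7.1a and RSEM 1.3.1 were used, with no role named, and the mouse builds were GRCm38 and mm10. No gerbil build is named there. Per the file headers, the mouse values deposited by the authors are FPKM, for 27632 loci, and the gerbil values used are TPM, for 25745 genes. A further 4 columns of the gerbil table, with read counts and RPKM, were not used, so planned uses of them were dropped. Of the mouse loci, 64 exceed 1000000 FPKM, and the highest matched gene is at 15641 FPKM.

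Symbols that occur once in each table were matched, without LOC, Gm and Rik names, and the 13325 matched genes of a library were scaled to add up to 1000000. The median trend of each library with transcript length (exon union of GENCODE M21 basic, 40 bins) was removed from log2(level + 1). Kept were 10162 genes with a known length and a mean level of 1 or more. Within a species, lower or higher means at least 2-fold, between 1 library each. Whether the libraries came from separate animals is not stated. No significance test of these libraries was run. The 8 genes and the 17 lists were chosen with earlier results of these data known. Named by rule are the 8 genes, called relatives, defining partners and the 2 highest genes of each marker list. Other genes were chosen after their values were seen. Some genes of the lists are not reported here. Promoters were read over 250 bases before the start, in place of the whole RefSeq window first planned. The length correction and call rule were checked on simulated libraries, which bears on the calculation and not on these samples. Python 3.11.15, numpy 2.4.6, pandas 2.3.3, scipy 1.17.1 and matplotlib 3.10.9 were used.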

Additional observations from a re-analysis of the deposited data

How the results depend on the processing

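The choice of the genes fixes the direction of their within-species differences, so those counts say nothing of stability. Over the alternatives run, the count of genes at least 2-fold lower in mouse SEK stayed at 8 of 8 (7 of 7 with a minimum mean level of 10, which removes Slit1), and that in gerbil E23 stayed at 7 of 8 (7 of 7 with that minimum) except 8 of 8 with a pseudocount of 0.1. Of 55 values of single genes recomputed for mouse, all 55 kept their direction and side of 2-fold, as did 54 of 55 for gerbil, with Slit1 the exception. The count called higher in mouse was 0 in place of 1 with a pseudocount of 5, with no length correction, with the gene medians set equal and with the values as deposited. Leaving out 1 library at a time gave 1 to 3 genes called higher in mouse (3 without mouse SEK, 2 without gerbil E21) and 0 to 1 higher in gerbil (1, Dusp26, without mouse PEK); a lone library is then assumed to stand for its species. Of 87 recomputed species differences, 19 changed sign, none of them called under either setting, and the cause was not tested. Leaving out a library removes a side of the gap that chose the genes, which enters those calls and some of these sign changes. No paired analysis was possible because each ending has 1 library. The columns also carry no sample numbers. The 2 alternatives that needed other gerbil columns were not run. Depth was not assessed, so values near 0 carry no stated precision.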
